A study of Mus musculus with 6 samples.

Results

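The immunity-related GTPases (IRG family) are interferon-induced GTP-binding proteins of cell-autonomous defence. The 7 genes Irgm1, Irgm2, Igtp, Ifi47, Tgtp1, Tgtp2 and Iigp1 were taken by symbol from the 54532 genes of the count table. Polyadenylated transcripts of mouse peritoneal macrophages in culture, the phagocytes of the abdominal cavity, were sequenced in 3 libraries labelled as overexpressing Rfx1 (Rfx1_OE 1, 2 and 3) and 3 negative control libraries (NC 1, 2 and 3). Rfx1 is a DNA-binding regulator of the RFX family. The labels give no strain, age or time, do not say how Rfx1 was overexpressed or what the negative control received, and leave unsaid whether a group's libraries are separate animals, so the p-values below reflect the spread between these libraries and nothing more. All cells were kept in serum-containing medium.

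IRG proteins fall into a pair of classes named after a motif of their nucleotide-binding loop. The effectors, which have a lysine there (Tgtp1 and Tgtp2, also called Irgb6; Iigp1, also called Irga6; Ifi47, also called Irgd), load onto the vacuoles of intracellular parasites and bacteria and disrupt them. The regulators, which have a methionine there (Irgm1, Irgm2 and Igtp, also called Irgm3), sit on the cell's own membranes and keep the effectors inactive there. In mouse macrophages, both classes are known for induction by interferon gamma, and proteins of the autophagy conjugation system help to direct them to their targets.

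Of the 7 genes, 6 lie on chromosome 11 of mm10. Irgm1 (ENSMUSG00000046879, positions 48861968 to 48871683, - strand), Tgtp1 (ENSMUSG00000078922, 48985327 to 48994172, - strand), Tgtp2 (ENSMUSG00000078921, 49057194 to 49064206, - strand) and Ifi47 (ENSMUSG00000078920, 49076587 to 49096974, + strand) form a cluster. Igtp (ENSMUSG00000078853, 58199556 to 58207591, + strand) and Irgm2 (ENSMUSG00000069874, 58199618 to 58222782, + strand) lie further along, and their annotated bodies overlap. Iigp1 is on another chromosome. Annotated exons of these genes overlap in places. Igtp shares 162 exonic bases with Irgm2 on the same strand, Tgtp1 shares 223 with Gm12185, and Ifi47 shares 111 with Olfr56. Tgtp1 and Tgtp2 are near-identical copies, so their separate counts are uncertain.

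RefSeq windows of 250 bases before and 50 after the transcript start (GRCm38.p6) matched 6 of the 7 genes. The stretches below hold the letters that these genes share ahead of their starts. Interferon signals are known to act through such elements. The part of these letters in the IRG result was not tested. Capitals mark matches to an interferon-stimulated response element (ISRE, searched as GAAANNGAAA on both strands) and to a gamma-activated site (GAS, searched as TTCNNNGAA on both strands).
Irgm2: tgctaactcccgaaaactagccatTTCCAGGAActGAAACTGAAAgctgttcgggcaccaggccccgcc
Igtp: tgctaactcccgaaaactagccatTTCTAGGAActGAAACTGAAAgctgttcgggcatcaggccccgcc
Tgtp1: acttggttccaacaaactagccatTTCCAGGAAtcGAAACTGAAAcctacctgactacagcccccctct
Tgtp2: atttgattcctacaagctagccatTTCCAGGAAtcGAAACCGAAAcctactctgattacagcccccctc
Irgm1: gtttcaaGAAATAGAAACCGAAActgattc

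These stretches lie at chr11:58214878-58214946 (+ strand), chr11:58199487-58199555 (+ strand), chr11:48992290-48992358 (- strand), chr11:49064249-49064317 (- strand) and chr11:48871428-48871457 (- strand). Those of Irgm2 and Tgtp1 lie within the annotated bodies of these genes, outside annotated exons. That of Irgm1 is cut to 30 bases because it lies in an exon of a longer annotated Irgm1 transcript. In Irgm1 a pair of overlapping ISRE matches gives the run in capitals, and the GAS letters are not in its window. The ISRE letters were in 5 of the 6 windows and in 3.44% of all 32851 windows. The GAS letters were in 4 of the 6 and in 8.30% of all. In Irgm2, Igtp, Tgtp1 and Tgtp2 the GAS stood at the same distance ahead of the ISRE, a joint pattern written as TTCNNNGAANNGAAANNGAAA after these windows were read. That pattern was found in 5 of all windows, those of these 4 genes and of Gm12185, another IRG gene. These genes are related copies. Igtp and Irgm2 had the same base at 67 of 69 printed positions, and Tgtp1 and Tgtp2 at 51 of 69. A Tgtp copy set against Igtp or Irgm2 had 42 to 46. The stretches were lined up on their matched letters, which are part of these counts. No gaps were allowed, so an inserted base shifts the letters after it. The Ifi47 window held no ISRE or GAS letters, and the X-box consensus of RFX factors, searched by its letters on both strands, was in none of the 6 windows and in 1.53% of all. A match is a description of the letters, and a window without one says nothing of the factor.

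Libraries held 16461277 to 18795575 counts, and 13454 genes passed the filter on low counts. Several libraries stood apart within their label. Rfx1 itself had 40.8, 36.4 and 23.2 CPM (read counts scaled to a common library size) in Rfx1_OE libraries 1, 2 and 3, against 57.6, 11 and 14.8 CPM in NC libraries 1, 2 and 3, so the library labelled NC 1 held the most. Its log2 difference was 0.27 ± 0.58 (SE, edgeR quasi-likelihood test, adjusted p = 0.80), 1.37 without NC 1 (adjusted p = 0.024), -0.10 without NC 2 and -0.04 without NC 3. Lyz2, the macrophage lysozyme gene and also the locus of a Cre driver line much used in myeloid cells, had 44.7, 40.8 and 29281 CPM in Rfx1_OE 1, 2 and 3, against 15672, 38702 and 28352 CPM in NC 1, 2 and 3. It was chosen after its values were seen. Rfx1_OE 1 and 2 thus lacked nearly all of a transcript that Rfx1_OE 3 and every NC library held. The macrophage genes Cd68, Csf1r and Adgre1 were present in all 6 libraries, with Cd68 at 2398, 2714 and 1912 CPM in Rfx1_OE 1, 2 and 3, against 1893, 2640 and 2268 CPM in NC 1, 2 and 3.

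The IRG family was higher in the libraries labelled Rfx1_OE. Of the 7 genes 6 had enough counts to be tested, and 5 of these rose (Irgm1, Irgm2, Igtp, Ifi47 and Tgtp2), none fell and Iigp1 did not pass. Over all genes tested, 6.90% were called higher and 5.97% lower. The median log2 change of the 6 genes was 2.92, against -0.01 over all genes. Without NC 1, where Tgtp1 was also tested, the median was 3.96. In 6 of the 7 genes, every Rfx1_OE library lay above every NC library, as did 16.3% of all genes tested, although Tgtp1 had the same 9 counts in Rfx1_OE 3 and NC 1. Unless another test is named, each adjusted p comes from edgeR (quasi-likelihood) and is Benjamini-Hochberg adjusted over all genes tested. In bulk RNA, more cells that express a gene and more RNA per cell cannot be told apart. The mitochondrial share of counts was 0.856, 2.02 and 2.23% in Rfx1_OE 1, 2 and 3, against 2.19, 3.76 and 4.21% in NC 1, 2 and 3, so Rfx1_OE 3 and NC 1 were level, and its part in the IRG result was not tested.

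Among the regulators, Irgm1 had 363, 492 and 186 CPM in Rfx1_OE libraries 1, 2 and 3, against 96.4, 54.4 and 42.8 CPM in NC libraries 1, 2 and 3. The groups did not overlap, and within each label 1 library stood off, Rfx1_OE 3 as the lowest and NC 1 as the highest. Irgm1 rose by 2.43 ± 0.41 on the log2 scale (SE, adjusted p = 0.0056), a 5.38-fold difference. For Irgm2 the values were 71.3, 110 and 62.3 CPM in Rfx1_OE 1, 2 and 3, and 30.9, 13.2 and 13.2 CPM in NC 1, 2 and 3. It had the smallest rise of the 5 called genes, 2.08 ± 0.38 (adjusted p = 0.0070), and the smallest gap between Rfx1_OE 3 and the other libraries of its label. Igtp reached 176, 174 and 44.9 CPM in Rfx1_OE 1, 2 and 3, against 29.5, 15.5 and 9.60 CPM in NC 1, 2 and 3. The groups were again apart, with Rfx1_OE 3 at 1.52 times the level of NC 1, and the rise was 2.85 ± 0.58 (adjusted p = 0.014).

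Among the effectors, Ifi47 had 264, 252 and 98.2 CPM in Rfx1_OE 1, 2 and 3, against 50.7, 17.8 and 8.40 CPM in NC 1, 2 and 3. It rose by 3.0 ± 0.66 (adjusted p = 0.021), with all 3 Rfx1_OE libraries above all NC libraries. Tgtp2 stood at 72.3, 113 and 20 CPM in Rfx1_OE 1, 2 and 3 and at 7.41, 1.28 and 0.545 CPM in NC 1, 2 and 3. Of the 5 genes that passed it rose most, by 4.45 ± 0.96 (adjusted p = 0.019), again without overlap. Without NC 1 the rise of Tgtp2 was 6.21 and that of Ifi47 3.96. Its copy Tgtp1 had 145, 265 and 9 counts in Rfx1_OE 1, 2 and 3, against 9, 7 and 4 counts in NC 1, 2 and 3, and was left out by the filter on low counts. Tgtp1 was thus well above the NC libraries in Rfx1_OE 1 and 2 only, and Rfx1_OE 3 held as many counts as NC 1. Summing the counts of both copies gave a rise of 4.47 ± 0.93 (SE, adjusted p = 0.016).

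Iigp1 (ENSMUSG00000054072, chromosome 18, positions 60376027 to 60392634, + strand) showed the widest range of all. It had 195, 286 and 8.91 CPM in Rfx1_OE 1, 2 and 3, against 11.9, 0.479 and 0.164 CPM in NC 1, 2 and 3. Rfx1_OE 3 lay below NC 1, so the groups overlapped, and NC 2 and NC 3 rested on 9 and 3 counts. The log2 difference was 5.27 ± 1.57 (adjusted p = 0.064). Without NC 1 it was 8.94 (adjusted p = 0.0055), and DESeq2 called it with all libraries (adjusted p = 0.019).

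**Figure D1:**
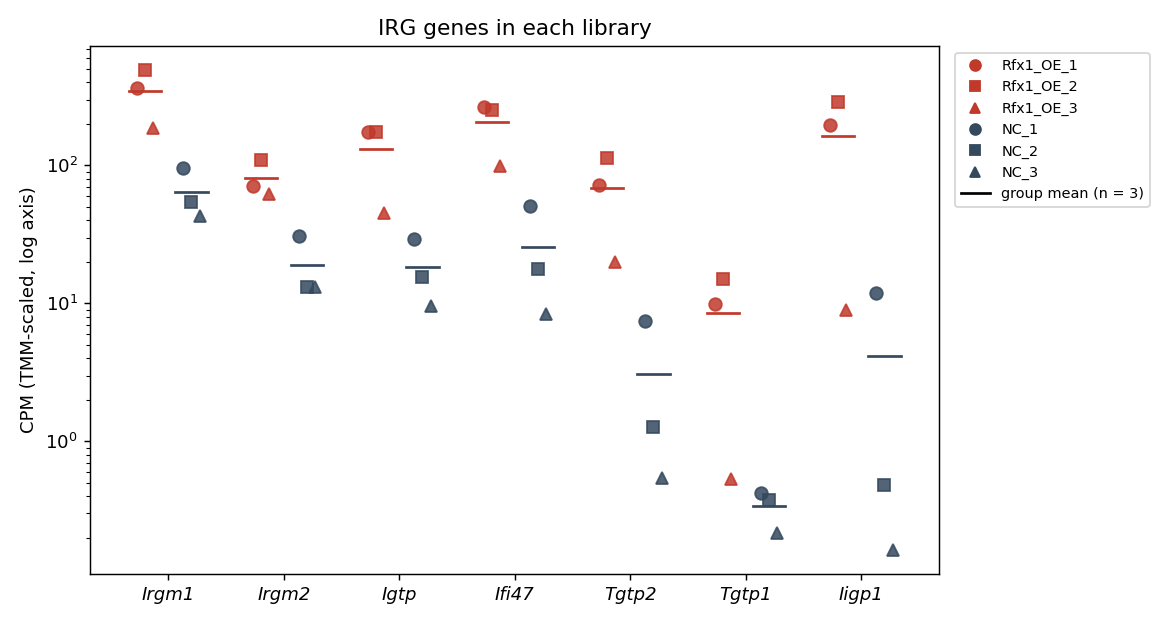
CPM of each IRG gene (log axis) in Rfx1_OE libraries (red, left) and NC libraries (dark, right), with 1 point per library and a bar at the mean of 3. Groups are apart in 6 genes, and in Iigp1 the Rfx1_OE 3 point (8.91 CPM) lies below NC 1 (11.9 CPM).

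Of the 5 calls, 3 were lost when a single library was left out. Irgm1 and Irgm2 passed with any 1 library left out. Igtp did not pass without Rfx1_OE 1 (adjusted p = 0.068) or NC 2 (0.063), while Ifi47 and Tgtp2 did not pass without Rfx1_OE 1 (0.089 and 0.072), Rfx1_OE 2 (0.059 and 0.055) or NC 2 (0.080 and 0.071). The number of genes called was 2 without Rfx1_OE 1, 3 without Rfx1_OE 2, 6 without Rfx1_OE 3, 7 without NC 1, 2 without NC 2 and 5 without NC 3. Tgtp1 passed the filter on low counts in some of these fits and is counted there, in the 6 and the 7 among others as called. It passed through Rfx1_OE libraries, where it is high, so its calls are no independent support. It was called without Rfx1_OE 3 (adjusted p = 1.5e-05) and without NC 1 (0.031). It was tested but not called without Rfx1_OE 1 (0.068), NC 2 (0.08) or NC 3 (0.055). Over all genes tested in the same fits, 5.20% were called higher without Rfx1_OE 1, 3.32% without Rfx1_OE 2, 11.8% without Rfx1_OE 3, 6.13% without NC 1, 3.26% without NC 2 and 3.79% without NC 3. Rfx1_OE 3, which kept its Lyz2 transcript, was also set alone against the 3 NC libraries, a choice made after seeing the data. The changes of Irgm1, Irgm2, Igtp, Ifi47, Tgtp2 and Iigp1 were then 1.53, 1.71, 1.31, 1.94, 2.69 and 1.09 on the log2 scale, with a median of 1.62. None passed (adjusted p = 0.12 to 0.87), where 1.78% of all genes tested were called higher. That fit takes its spread from the NC libraries, and the lone library is assumed to vary like them. The part of the Lyz2 difference in the IRG result was not tested.

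**Figure D2:**
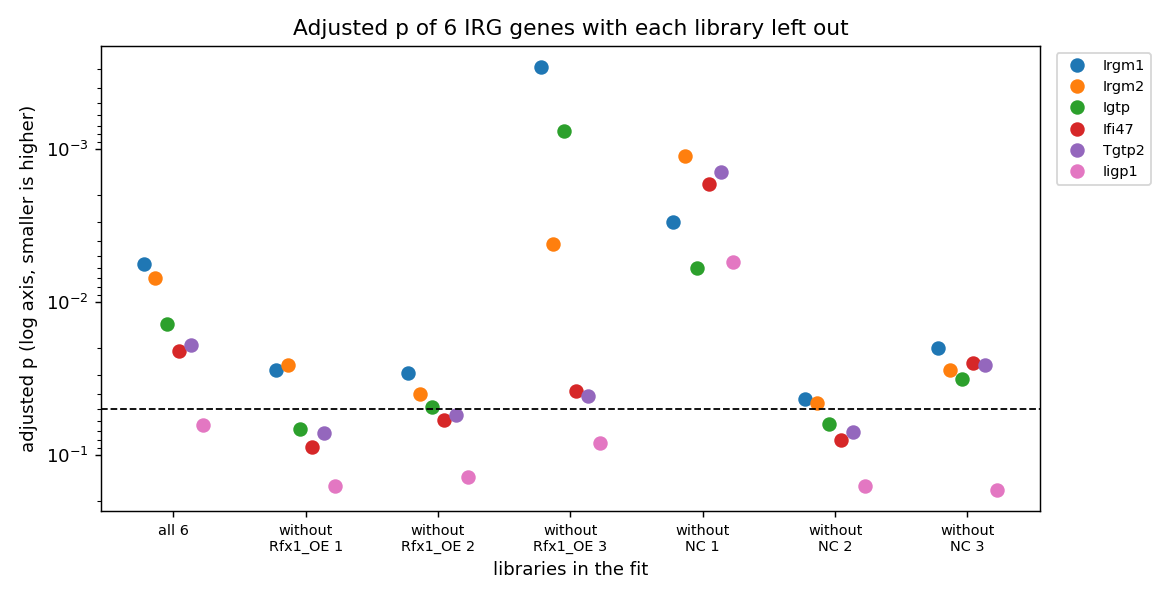
Adjusted p from edgeR (log axis, smaller values higher up) for 6 IRG genes with all libraries and with each library left out; the dashed line is 0.05. Irgm1 and Irgm2 stay above the line in every fit, and Iigp1 crosses it only without NC 1 (adjusted p = 0.0055).

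The makeup of the family's counts differed between libraries. Summed over the 7 genes, the level was 1151, 1441 and 420 CPM in Rfx1_OE 1, 2 and 3, against 227, 103 and 74.9 CPM in NC 1, 2 and 3. Irgm1 made up 31.5, 34.2 and 44.1% of these counts in Rfx1_OE 1, 2 and 3, against 42.4, 52.7 and 57.1% in NC 1, 2 and 3. Iigp1 made up 16.9, 19.8 and 2.12% in Rfx1_OE 1, 2 and 3, against 5.22, 0.465 and 0.218% in NC 1, 2 and 3. A large Iigp1 share was thus seen in Rfx1_OE 1 and 2, the libraries with the highest family totals, and the share of NC 1 was above that of Rfx1_OE 3.

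**Figure D3:**
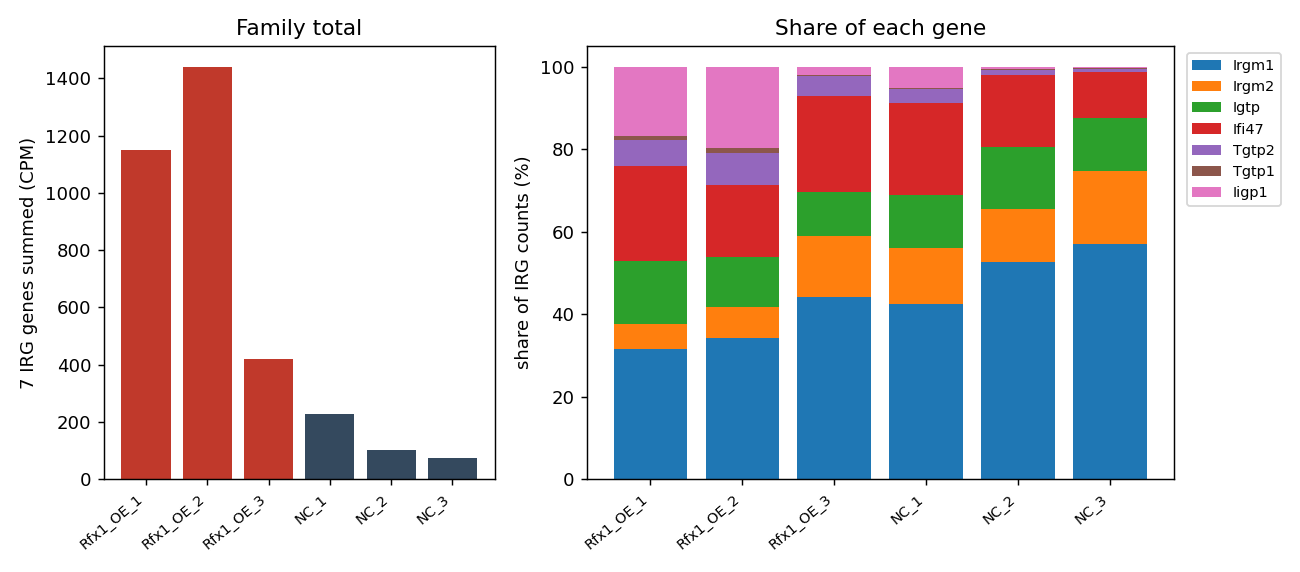
Left, summed CPM of the 7 IRG genes per library. Right, the share of each gene in those counts (%), where the Iigp1 segment is 16.9 and 19.8% in Rfx1_OE 1 and 2 and 2.12% in Rfx1_OE 3, against 5.22, 0.465 and 0.218% in NC 1, 2 and 3.

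Levels of different genes are compared as CPM per kilobase of annotated exons. In Rfx1_OE libraries the order of mean levels was Ifi47 (82.8 ± 37.4, SD, n = 3), Igtp (65.0 ± 37.1), Irgm1 (59.7 ± 26.5), Iigp1 (28.0 ± 24.2), Tgtp2 (23.3 ± 15.8), Irgm2 (22.0 ± 6.84) and Tgtp1 (2.65 ± 2.29). In NC libraries it was Irgm1 (11.1 ± 4.86, SD, n = 3), Ifi47 (10.4 ± 8.97), Igtp (9.0 ± 5.04), Irgm2 (5.18 ± 2.77), Tgtp2 (1.05 ± 1.28), Iigp1 (0.715 ± 1.14) and Tgtp1 (0.106 ± 0.0336). The means of the first 3 in each group differed by less than their SD between libraries, as did those of Iigp1, Tgtp2 and Irgm2 in the Rfx1_OE group. That SD does not measure the order within a library. Ifi47 ranked first in Rfx1_OE 1, 2 and 3 and in NC 1, and Irgm1 in NC 2 and NC 3. Iigp1 held rank 4 in Rfx1_OE 1 and 2 and was last in NC 2 and 3. Per coding length, which is 1227 bases for Irgm1 against 5810 of exons, Irgm1 ranked first in all 6 libraries.

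Of 10 other genes of the family, 7 were tested and 1 rose, or 14.3% of those tested, against 6.90% of all genes. Gm12250, annotated as a pseudogene and known as the effector Irgb10, had 43.6, 50.6 and 21.9 CPM in Rfx1_OE 1, 2 and 3, against 12.1, 4.74 and 2.67 CPM in NC 1, 2 and 3. Its rise was 2.56 ± 0.54 (adjusted p = 0.016), and the groups did not overlap. Gm4951, on chromosome 18 near Iigp1, had 18.2, 26.3 and 1.59 CPM in Rfx1_OE 1, 2 and 3, against 2.36, 0.213 and 0 CPM in NC 1, 2 and 3. As in Iigp1, Rfx1_OE 3 lay below NC 1, and the difference of 4.11 ± 1.28 did not pass (adjusted p = 0.072). Gm12185 and Gm5431 had log2 differences of 1.65 ± 0.63 and 1.19 ± 0.44 (adjusted p = 0.12 and 0.10). The remaining tested genes were near 0: 9930111J21Rik1 at -0.15 ± 0.68, 9930111J21Rik2 at -0.31 ± 0.61, and Irgq, a divergent member, at -0.26 ± 0.25 (adjusted p = 0.91, 0.78 and 0.55). The count of called genes was 5 without NC 1, 4 without Rfx1_OE 3, and 0 without NC 2, Rfx1_OE 1 or Rfx1_OE 2.

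**Figure D4:**
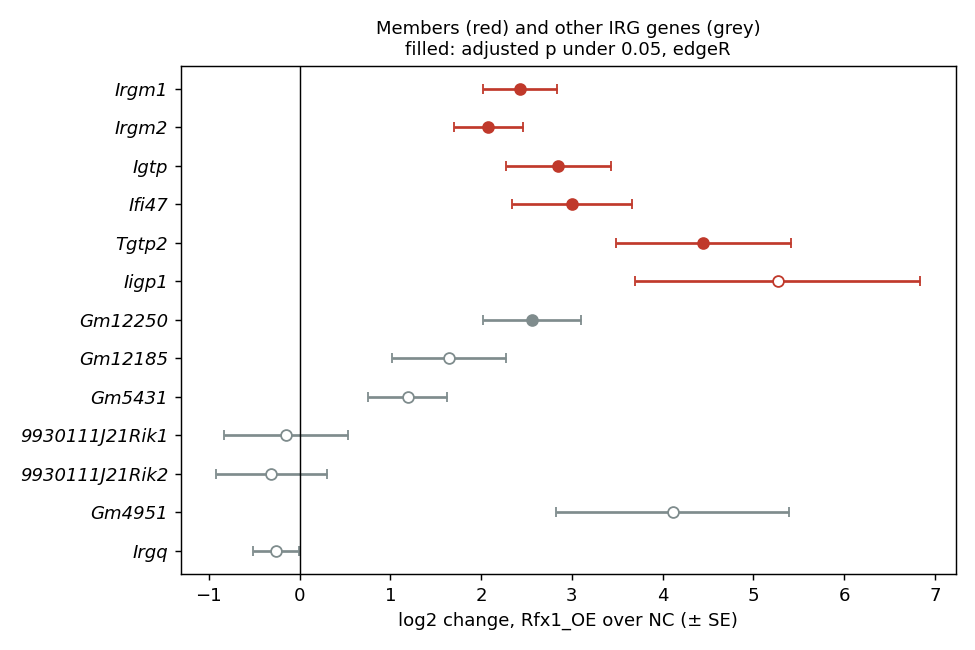
Log2 change of Rfx1_OE over NC with its SE for the 6 tested members (red) and 7 other IRG genes (grey); filled points passed an adjusted p of 0.05. The members lie between 2.08 (Irgm2) and 5.27 (Iigp1), while Irgq and the 9930111J21Rik pair lie slightly below 0.

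Other genes at the same loci were called higher in 18.2% of those tested, against 6.90% of all genes. Within 250 kb of a member, outside the IRG family, 22 genes were tested, 4 rose and none fell, with a median log2 change of 0.14. Those that rose were Olfr56 (4.59, adjusted p = 0.0028), Trim7 (1.92, adjusted p = 0.023), Psme2b (1.51, adjusted p = 0.0079) and Smim3 (1.30, adjusted p = 0.0037), which were named after their values were seen. Olfr56 shares exonic bases with Ifi47, and its own counts were 108, 188 and 36 in Rfx1_OE 1, 2 and 3, against 7, 6 and 3 in NC 1, 2 and 3.

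Interferon transcripts were scarce. Of 11 interferon ligand genes, 9 had no counts in any library, Ifnb1 among them; 3 counts, the limit that a count of 0 allows, correspond to 0.142 to 0.205 CPM. Ifng, which encodes interferon gamma, had 25, 30 and 1 counts in Rfx1_OE 1, 2 and 3, against 13, 0 and 0 counts in NC 1, 2 and 3. The groups overlapped and the log2 difference of 2.40 ± 1.33 did not pass (adjusted p = 0.28). The 3 libraries with more than 1 Ifng count were also those with the most Iigp1. Markers of T and NK cells, the usual sources of Ifng, are a list of 12 genes, of which 7 were tested and none passed. All 12 had counts in NC 1. Summed, they stood at 18.6, 14.6 and 6.08 CPM in Rfx1_OE 1, 2 and 3, against 40.7, 5.27 and 3.82 CPM in NC 1, 2 and 3, so NC 1 was highest. Their part in the IRG result was not tested.

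Genes of the interferon gamma receptor and its signalling partly followed. Of 9 tested, 5 rose (55.6%, against 6.90% of all genes) and none fell, with a median log2 change of 1.11. Irf1, which encodes an interferon-induced transcription factor, had 631, 602 and 177 CPM in Rfx1_OE 1, 2 and 3, against 97.7, 28.4 and 20 CPM in NC 1, 2 and 3 (3.27 ± 0.71, adjusted p = 0.019). It showed the order of the IRG genes, with Rfx1_OE 3 the lowest of its label and NC 1 the highest of its own. The kinase gene Jak2 rose by 1.68 ± 0.21 (adjusted p = 0.0013) and Socs1, which encodes a feedback inhibitor of the pathway and had 34.5, 41.5 and 6.37 CPM in Rfx1_OE 1, 2 and 3, against 1.94, 0.479 and 0.709 CPM in NC 1, 2 and 3, by 4.69 ± 0.79 (adjusted p = 0.0070). The count of genes that rose was 2 without NC 2, and 3 without Rfx1_OE 1 or Rfx1_OE 2.

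On the type I interferon side, 4 of 9 tested genes rose (44.4%, against 6.90% of all genes). None fell, and the median log2 change was 0.62. Stat2 had 59.0, 55.8 and 81.3 CPM in Rfx1_OE 1, 2 and 3, against 27.2, 13.3 and 14 CPM in NC 1, 2 and 3 (1.85 ± 0.31, adjusted p = 0.0054), and the receptor gene Ifnar2 rose by 1.60 ± 0.25 (adjusted p = 0.0037). Irf9, the DNA-binding partner of STAT2, had a difference of 0.58 ± 0.29 (adjusted p = 0.22). Irf7, a factor that amplifies type I interferon, was named after its values were seen. It had 347, 271 and 286 CPM in Rfx1_OE 1, 2 and 3, against 45.6, 11.6 and 7.69 CPM in NC 1, 2 and 3 (3.80 ± 0.64, adjusted p = 0.0072). Rfx1_OE 3 was the highest of its label in Stat2 and between the others in Irf7, and it was the lowest of its label in the other 2 called genes, Ifnar2 and Usp18, as in all 7 IRG genes.

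**Figure D5:**
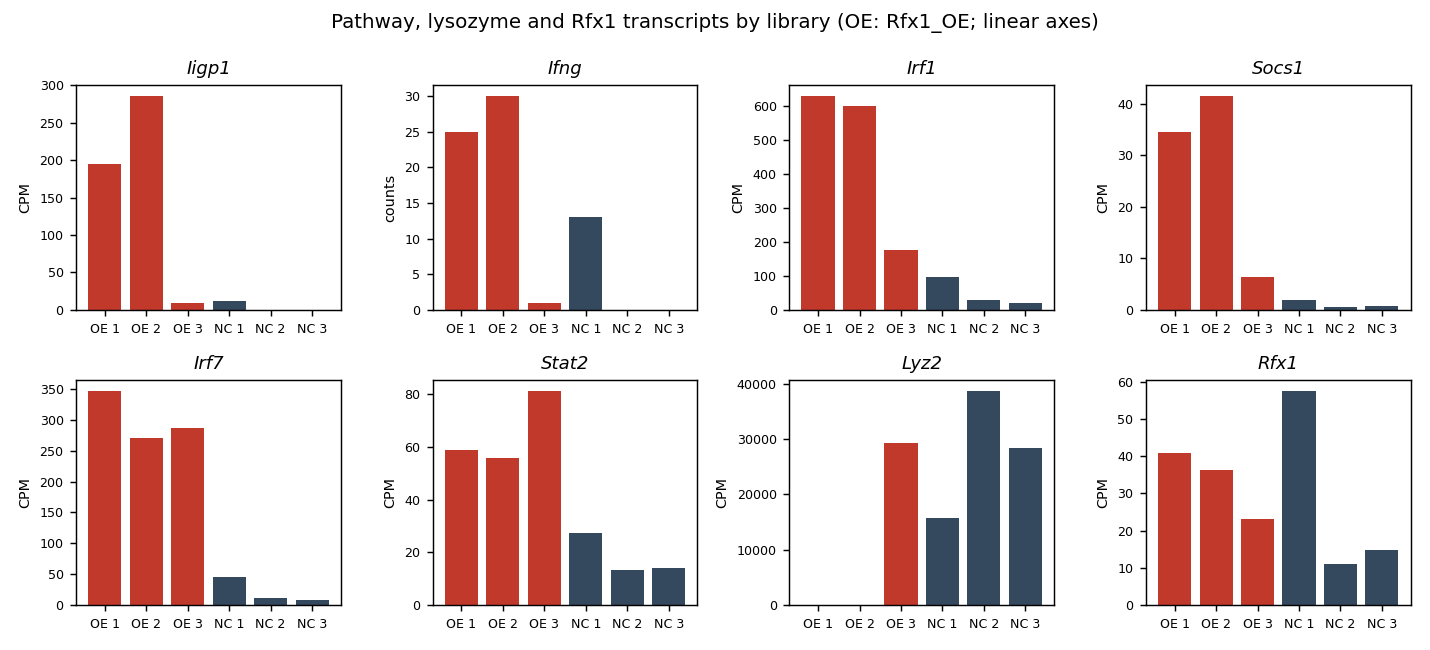
CPM, or counts for Ifng, of 8 genes by library on linear axes (Rfx1_OE red, NC dark). Iigp1, Ifng, Irf1 and Socs1 are lowest in Rfx1_OE 3 within their label, Stat2 is highest there (81.3 CPM), and Lyz2 is close to 0 on this scale in Rfx1_OE 1 and 2 (44.7 and 40.8 CPM).

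The guanylate-binding proteins are larger interferon-induced GTPases that act on the same vacuoles. They rose in 9 of 9 tested genes, against 6.90% of all genes, with a median log2 change of 4.54. Gbp2b and Gbp10, also of this family, had too few counts to be tested. Gbp9 rose by 2.58 ± 0.45 (adjusted p = 0.0063). Gbp11 had 166, 156 and 75 counts in Rfx1_OE 1, 2 and 3, against 3, 0 and 0 counts in NC 1, 2 and 3. It thus passed the filter on low counts only through the group where it is high. The count of genes called in this family was 5 without NC 2 or Rfx1_OE 1. Of 17 autophagy genes tested, 5.88% were called higher, close to the 6.90% of all genes. The 1 gene was Traf6, which encodes a ubiquitin ligase (1.28 ± 0.23, adjusted p = 0.0063), none fell and the median log2 change was 0.21. Profiles were compared with the mean standardised profile of the 7 IRG genes over the 6 libraries. Ranked were 9390 tested genes with a mean of at least 5 CPM. Predicted, clone and Rik symbols were left out, and with them IRG genes such as Gm12250. The closest were Gbp2 (Pearson r = 0.998), Il18bp (0.997), Gbp3 (0.997), Clic5 (0.996) and Irf1 (0.995). Between pairs of IRG genes r ran from 0.820 (Irgm2 with Tgtp1) to 0.995 (Tgtp2 with Ifi47). These are descriptions over 6 libraries that share their groups and their depth.

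Markers of other cells also differed between the groups. The counts of calls below stand beside 6.90% called higher and 5.97% called lower over all genes tested. Summed mesothelial markers were at 2.19 to 8.32 CPM in Rfx1_OE libraries and 28.2 to 175 CPM in NC libraries, with 5 of 7 tested lower, and fibroblast markers at 282 to 803 and 654 to 1694 CPM, with 2 of 6 tested lower. Neutrophil markers stood at 193 to 601 CPM in Rfx1_OE libraries and 17.7 to 21.8 CPM in NC libraries, with 3 of 3 tested higher. Nearly all of these sums came from S100a8 and Mmp8. Camp, also called, had 41, 14 and 10 counts in Rfx1_OE 1, 2 and 3 and 0 in every NC library. In the same Rfx1_OE libraries S100a9 had 8, 14 and 2 counts and Retnlg 0, 1 and 0. Ly6g, a defining marker, was at 0 counts throughout. For dendritic cells the sums were 52.5 to 117 and 127 to 266 CPM (2 of 4 tested higher, 1 lower), for B cells 37.8 to 104 and 79.4 to 187 CPM, and for mast cells 9.74 to 17.5 and 8.74 to 20.6 CPM, with no B or mast cell marker passing. The members of these lists with the smallest p were Upk3b (-10.63, adjusted p = 0.0020) and Gpm6a (-8.31, adjusted p = 0.0021) for mesothelium, Pdgfra (-3.62, adjusted p = 0.015) and Lum (-3.68, adjusted p = 0.020) for fibroblasts, Mmp8 (5.00, adjusted p = 0.0022) and S100a8 (3.92, adjusted p = 0.0080) for neutrophils, and Clec9a (3.13, adjusted p = 0.0015), Ccr7 (1.99, adjusted p = 0.0082) and Itgax (-1.79, adjusted p = 0.044) for dendritic cells, as log2 changes. In Rfx1_OE 1, 2 and 3, Upk3b had 0, 0 and 1 counts and Gpm6a 0, 0 and 2. The sizes of their log2 changes are therefore not well measured. In NC 1, 2 and 3, Upk3b had 150, 1068 and 1215 counts and Gpm6a 72, 398 and 377. Among 9 tested macrophage markers 3 rose, led by Cd14 (3.88, adjusted p = 0.0011) and Adgre1 (1.37, adjusted p = 0.024), and 1 fell. It was Gata6, which encodes the defining factor of resident peritoneal macrophages, with 0.889, 1.59 and 4.31 CPM in Rfx1_OE 1, 2 and 3, against 11.3, 24.7 and 34.6 CPM in NC 1, 2 and 3 (-3.36, adjusted p = 0.0081). The part of these cells in the IRG result was not tested.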

How the data were processed

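The kit was a stranded one for mRNA, per the labels. The authors deposited raw read counts per Ensembl gene for 6 libraries; featureCounts 1.5.0-p3, DESeq2 1.20.0 and build mm10 are named per the submitters' processing notes, while for the aligner and strand setting nothing is given in the sources used here. Identifiers were matched to GENCODE mouse release 21 (54495 of 54532). Counts were fitted with edgeR 4.0.16 in R 4.3.3, with group as the only term. Settings were TMM, default filter by group, robust quasi-likelihood, and Benjamini-Hochberg over 13454 genes with threshold 0.05. The same steps were also run on counts simulated from the means, dispersions and library sizes of that fit. The SE is the log2 change divided by the square root of F. CPM uses TMM-scaled library sizes, and log2 profiles a prior count of 2. No pair of replicates was within sampling noise (chi-square per degree of freedom at least 37.1).

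The members and lists were chosen with earlier results of these data known. Named were all members, tested genes of the IRG list, up to 2 called genes in each direction by smallest p from each other list, Ifng, Ifnb1, Irf1, Stat2 and Irf9, and the 5 genes of most similar profile. Alternatives were other scalings, filters and thresholds, DESeq2 1.42.0, limma 3.58.1 voom, a replicate block, summed Tgtp copies and leaving out each library. A gene that the naming rule also covers is not reported here. Floors cover counting error only.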

Additional observations from a re-analysis of the deposited data

How the results depend on the processing

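The count of 5 IRG genes called higher was 5 or 6 under the other scalings, the other filter, DESeq2 and limma-voom, and 7 without a filter. No member was called lower in any fit. Over all 13454 genes tested, 1363 were called higher with DESeq2, 2453 with limma-voom and 648 with library size only, against 928 in the main fit. Without a filter, 1457 of 23737 were called higher. Leaving out each library gave counts from 2 to 7, with Tgtp1 counted where it passed the filter. An adjusted p threshold of 0.01 left 2. For Rfx1_OE 3 alone against NC, the median log2 change moved to 1.62 from 2.92. The median was 3.96 without NC 1, where Tgtp1 was also tested, and 3.72 with limma-voom, which gave 6.24 for Tgtp2. No member changed sign. Without a filter on low counts Iigp1 had an adjusted p of 3.2e-58 (edgeR) although its groups overlap. The p-values of that fit are not comparable with the others, and its counts of calls are listed with that limit. Whether the replicate numbers pair the libraries was not settled. Deviations of libraries 1, 2 and 3 correlated across the groups with r = 0.0941, 0.00531 and 0.327. Between unlike numbers r ran from -0.232 to 0.19, and Rfx1_OE 2 correlated best with NC 1. With the replicate number as a block 6 members were called higher, Iigp1 among them (adjusted p = 0.0032). The log2 difference of Rfx1 was 1.37 without NC 1 and reversed without NC 2 (-0.10) or NC 3 (-0.04).

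Against 1 other IRG gene called, 2 were with DESeq2 or the block, 3 with limma-voom and 6 without a filter. Guanylate-binding proteins fell to 5 calls from 9 without NC 2 or Rfx1_OE 1, and to 1 for Rfx1_OE 3 alone. Interferon gamma signalling genes fell to 2 from 5 without NC 2, 3 without Rfx1_OE 1 or 2, and 1 for Rfx1_OE 3 alone, and 1 was called lower with library size only or limma-voom. Type I genes fell to 1 from 4, and autophagy genes to 0 from 1, for Rfx1_OE 3 alone; limma-voom called 3 autophagy genes higher and 1 lower, and Ifng higher, as did the fit without a filter for Ifng. With limma-voom, 2453 of all 13454 genes tested were called higher and 2667 lower. The causes were not tested. Library size as the only scaling moved the median of all genes to -0.20. Ifi47 ranked first per exon length in 4 libraries and in 0 per coding length, Irgm1 in 2 and 6. Depth limits Tgtp1, Ifng and Iigp1 in NC 2 and 3.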
